A study of Mus musculus with 13 samples.

Results

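miR-34a-5p is the mature microRNA (miRNA) cut from the 5′ arm of the mir-34a hairpin, and here it was followed through plasma exosomes of septic and control mice. It was found by its name among the 68 miRNA probes of the deposited raw table, where it is 1 probe of 68, and it was read in all 13 mice. All mice were male, wild type (WT) and of strain C57BL/6J, and plasma was taken 24 hours after surgery. In 8 mice the surgery was CLP (cecal ligation and puncture), a model of polymicrobial sepsis that lets gut bacteria escape through a pierced cecum, and 5 mice had a sham operation, which the labels call control. Exosomes, the small vesicles that cells shed into blood, were pelleted by ultracentrifugation, and their RNA was read as fluorescence on FirePlex hydrogel particles. Their age is not stated in the labels used here.

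miR-34a-5p is known as a direct transcriptional target of the tumour suppressor p53, and its best described targets, among them the deacetylase SIRT1 and the survival factor BCL2, place it in cell cycle arrest and cell death. Outside the cell, uridine-rich single-stranded RNA is sensed by Toll-like receptor 7 (TLR7), an endosomal receptor of innate immune cells. miR-34a-5p is 1 of several miRNAs reported to activate mouse macrophages through TLR7 when added from outside. The table holds abundances only, so neither p53 activity nor TLR7 signalling was measured.

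The sequence is shown because both roles rest on it: the seed (bases 2 to 8 from the 5′ end, in capitals) chooses the mRNA targets, and the uridines bear on TLR7. RefSeq on build GRCm38.p6 places the mature miRNA at chr4:150068473-150068494 on the plus strand. The RefSeq annotation used here gave 4 mature miRNAs with this seed, which need not be the whole seed family. They are given here with miR-34a-5p first, and of these miR-34a-5p was the only one matched to a probe of the panel.
mmu-miR-34a-5p: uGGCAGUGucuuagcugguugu
mmu-miR-34b-5p: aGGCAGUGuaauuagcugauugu
mmu-miR-449a-5p: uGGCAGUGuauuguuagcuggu
mmu-miR-449c-5p: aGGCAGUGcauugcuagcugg
The other members of the seed family were not analysed here. The hairpin it is cut from spans chr4:150068454-150068555 (plus strand), with the mature miRNA in capitals at bases 20 to 41. It overlaps no other gene in the RefSeq table and lies between Gm13067 and Gpr157.
Mir34a hairpin: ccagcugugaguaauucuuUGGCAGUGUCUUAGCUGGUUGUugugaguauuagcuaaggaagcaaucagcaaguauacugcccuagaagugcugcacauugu

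Uridine made up 40.9% of miR-34a-5p (9 of 22 bases), against a median of 31.1% (range 9.52% to 45.5%) over the 48 probes whose name matched a mouse miRNA in RefSeq. Only 4 of the 48 had a higher share. Guanine and uridine together made up 77.3% of it, against a median of 52.2%, with 3 miRNAs higher. GU or UG steps numbered 8 in miR-34a-5p, against a median of 4. By base composition it thus lies near the uridine-rich end of the panel, as does let-7b-5p, which is known to activate TLR7 on neurons. These are the other miRNAs known as extracellular TLR7 or TLR8 ligands that matched by name, shown for comparison with the seed in capitals.
mmu-let-7b-5p: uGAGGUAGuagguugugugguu
mmu-miR-155-5p: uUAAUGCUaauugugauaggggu
mmu-miR-146a-5p: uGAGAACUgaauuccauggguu
mmu-miR-29a-3p: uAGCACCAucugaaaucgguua
mmu-miR-210-3p: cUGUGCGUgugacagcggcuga
None of these shares the seed of miR-34a-5p, and their uridine shares run from 22.7% in miR-210-3p to 40.9% in let-7b-5p. The probes carry human miRNA names, and the sequences are those of the mouse miRNAs of the same name, not of the probes.

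The summed raw signal of the panel was 33043 to 74685 units in CLP mice and 10598 to 45121 units in sham mice in all, and precision is limited by how many mice there were. No 2 samples held identical values. The red cell markers miR-451a, miR-486-5p and miR-16-5p together made up 18.9% to 30.1% of the signal in CLP mice and 29.4% to 48.2% in sham mice. All 7 zero readings of the raw table lie in sham mouse 4, and none of them is miR-34a-5p. The columns for CLP mice 6 and 7 are exchanged between the deposited tables, and single-mouse values here follow the raw table. Nothing in the labels says how mice were housed or assayed together, so the p-values speak to the variation among these samples alone.

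Before any scaling between mice, miR-34a-5p was brighter in CLP mice. Its raw signal was 19.8 units in the dimmest CLP mouse, with a median of 96.0 and a highest value of 160.2 units, against 5.81, 6.41, 13.5, 33.0 and 43.2 units in the 5 sham mice. In all CLP mice other than mouse 8 it exceeded the brightest sham mouse (7 of 8). CLP mouse 8 lay below sham mice 3 and 5, so the groups overlapped. On the log2 scale the mean was 6.28 ± 0.93 (SD, n = 8) in CLP mice and 3.89 ± 1.32 (SD, n = 5) in sham mice. The difference of 2.38 log2 units (SE 0.55) is a 5.22-fold higher signal, with a 95% interval of 2.40 to 11.4-fold and a limma adjusted p = 0.000557 over the 66 miRNAs tested without scaling. For the same difference, exact permutation of the mice (two-sided) gave p = 0.00311, where the smallest p that the 1287 splits of the mice allow is 0.000777.

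The rise of miR-34a-5p is to be read against a panel that rose almost as a whole. Of the 66 miRNAs, 60 (90.9%) passed as higher in CLP and 0 as lower, and the median change was 1.87 log2 units. miR-34a-5p lay 0.51 above that median and was 15th in the order of changes. The groups did not overlap for 10 of the 66 (15.2%), and miR-34a-5p was not among them.

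**Figure D1:**
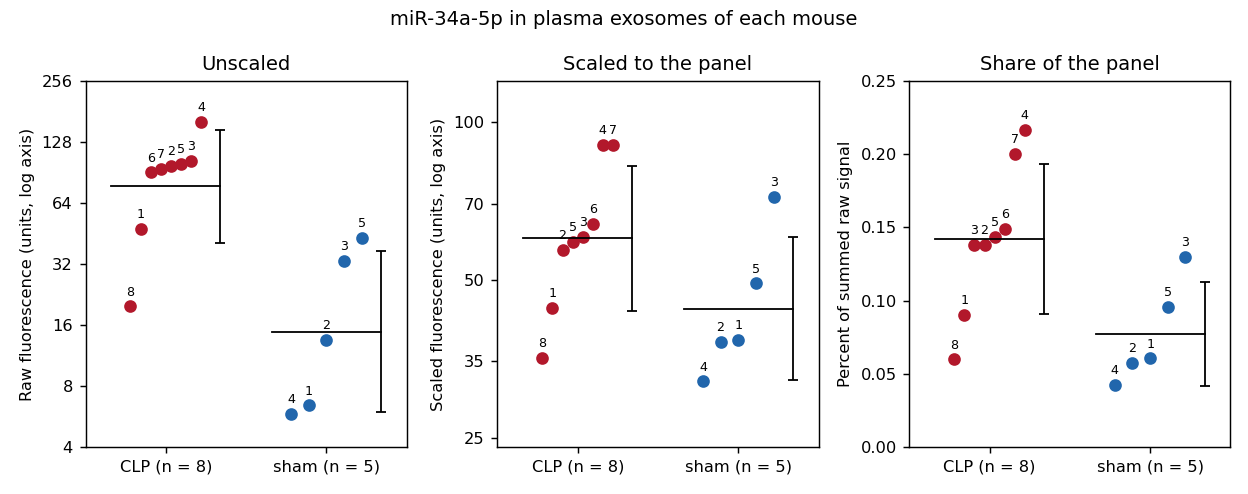
Signal of miR-34a-5p in each mouse (points, labelled by mouse number), CLP left and sham right: raw fluorescence in units, fluorescence scaled to the panel in units (both on log axes, lines and bars are the mean and SD of log2 values) and percent of the summed raw signal (mean and SD). The raw values of 7 of 8 CLP mice lie above every sham mouse, and after scaling 2 of 8 do.

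The signal of miR-34a-5p followed the signal level of the mouse closely. The level was taken as the mean log2 raw signal of the 59 other miRNAs above 0 in every mouse, so that miR-34a-5p did not enter it. It was 8.51 ± 0.57 (SD, n = 8) in CLP mice and 6.57 ± 0.99 (SD, n = 5) in sham mice, a 3.81-fold higher level (p = 0.00155 by exact two-sided permutation, and 0.00466 after Benjamini-Hochberg adjustment over the level, the share and the rank). Within groups, miR-34a-5p changed by 1.36 log2 units (SE 0.16, n = 13) for each log2 unit of level. The slope was 1.47 (SE 0.27, n = 8) in CLP mice and 1.29 (SE 0.21, n = 5) in sham mice, and the difference between these was not tested. Among CLP mice, Pearson's r between them was 0.91 (exact permutation p = 0.00543, n = 8) and Spearman's rho 0.86 (exact permutation p = 0.0107, n = 8). Without CLP mice 7 and 8, the farthest from the median level, r was 0.90 (exact permutation p = 0.00556) and rho 0.83 (exact permutation p = 0.0583, n = 6). Without CLP mouse 8 alone r was 0.68 (exact permutation p = 0.0458), and without CLP mouse 7 alone it was 0.97 (exact permutation p = 0.000794). The strength of the correlation thus depended in part on CLP mouse 8, the dimmest of its group. The correlation with the level was computed in CLP mice and not in the 5 sham mice. Any unscaled probe carries the overall signal of its mouse, so some correlation with the level is built in. It was not computed for the other miRNAs, so r does not set miR-34a-5p apart from them.

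A slope above 1 means that miR-34a-5p changed by more than the level did. Over the 66 miRNAs the median slope was 0.97 (range 0.29 to 1.80), 31 had a slope above 1, and that of miR-34a-5p was the 9th highest. Probes of similar brightness had steep slopes too. miR-34a-5p was 50th of 68 by mean scaled signal, and all 6 of the probes next to it (miR-132-3p, miR-203a-3p and miR-210-3p above, miR-30a-5p, miR-200a-3p and miR-885-5p below) had slopes above 1, from 1.09 for miR-885-5p to 1.80 for miR-200a-3p. Whether brightness sets the slope was not tested.

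**Figure D2:**
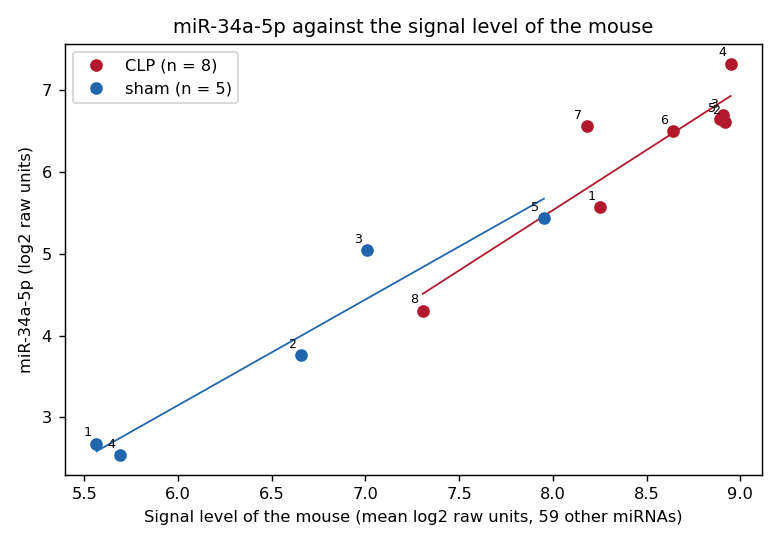
log2 raw signal of miR-34a-5p (y axis) against the signal level of the mouse (x axis, mean log2 raw units of the 59 other miRNAs), with the least-squares line of each group and mice labelled by number. CLP mouse 8 and sham mouse 5 are where the levels of the groups overlap, and the slopes are 1.47 in CLP mice and 1.29 in sham mice.

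The few mice of like level show no consistent separation between the groups. CLP mouse 8, the dimmest of its group at a level of 7.31, had 19.8 units of miR-34a-5p, whereas sham mouse 3, at a level of 7.01, had 33.0 units. CLP mouse 1 (level 8.25) had 47.6 units and CLP mouse 7 (level 8.18) had 94.1 units, against 43.2 units in sham mouse 5 (level 7.95). CLP mice 1 and 7 thus differed more from each other than CLP mouse 1 did from the sham mouse. With the level as a covariate, the group difference of miR-34a-5p was -0.24 log2 units (SE 0.37, 95% interval -1.04 to 0.56, limma adjusted p = 0.709), and 8 of 66 miRNAs (12.1%) passed in that fit. As a fold, the interval runs from 0.486 to 1.48, so no difference was detectable at equal level, and the groups share little of their range of levels. With 1 mouse left out, the difference at equal level ran from -0.66 log2 units (without sham mouse 5) to 0.024 (without CLP mouse 8) and passed in none. Without sham mouse 3, whose rank of miR-34a-5p stood apart in its group, it was 0.0056 log2 units (limma adjusted p = 0.988).

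**Figure D3:**
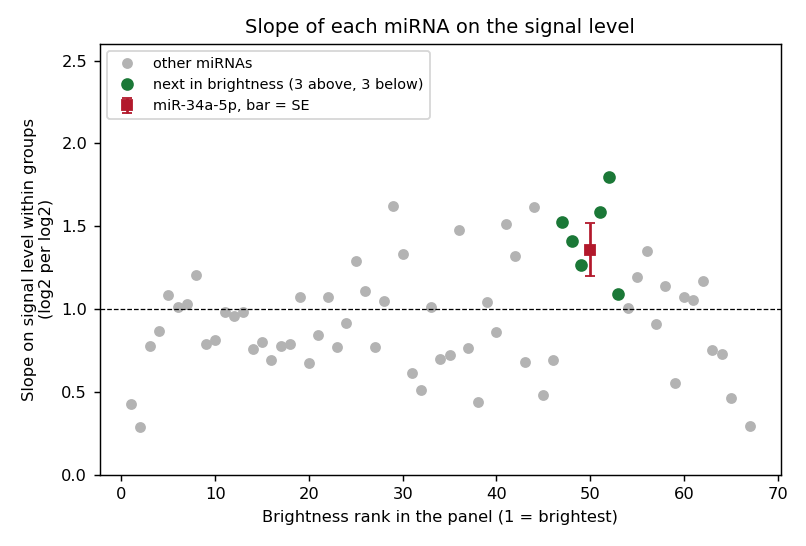
Slope of log2 raw signal on the signal level within groups (y axis, log2 per log2, dashed line at 1) against brightness rank in the panel (x axis, 1 = brightest) for the 66 miRNAs tested without scaling. miR-34a-5p (square, bar = SE) has a slope of 1.36, and the 6 probes next to it in brightness lie between 1.09 and 1.80.

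Relative to the panel, once the values of each mouse had been set relative to its geometric mean over 60 miRNAs (those above 0 in every mouse), miR-34a-5p was higher in CLP mice by an amount that did not pass the test. Its scaled signal was 35.5 units in the lowest CLP mouse (mouse 8), with a median of 59.8 and a highest value of 90.7 units, against 32.0, 38.2, 38.4, 49.3 and 72.0 units in the sham mice. The groups overlapped widely: only CLP mice 4 and 7 lay above sham mouse 3, the highest of its group, and only sham mouse 4 lay below every CLP mouse. The log2 mean was 5.91 ± 0.46 (SD, n = 8) in CLP mice and 5.46 ± 0.45 (SD, n = 5) in sham mice. The difference of 0.45 (SE 0.25, 1.36-fold, 95% interval 0.94 to 1.98-fold) had a limma adjusted p = 0.183, and the exact permutation test gave p = 0.117 unadjusted. Of the 65 miRNAs tested, 20 (30.8%) passed, 7 higher (10.8%) and 13 lower (20%) in CLP, the groups did not overlap for 5 (7.69%), and the median change was 0.10. miR-34a-5p was 18th in the order of changes, and its within-group SD of 0.46 was 25th of 65.

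The size of the relative change depended on the scaling. It was 0.02 (95% interval -0.45 to 0.49) with quantile normalization, 0.36 with the panel median, 0.56 with the 3 most stable miRNAs, 0.66 with the 75th percentile and 0.66 with the authors' deposited values. None of these passed over the panel (limma adjusted p = 0.936, 0.407, 0.112, 0.102 and 0.108, in the same order; 0.0718 to 0.936 over all alternatives), and the unscaled signal was the 1 of 7 scalings in which it did. Each of these scalings other than quantile normalization applies 1 factor per mouse, so it moves miR-34a-5p and the panel median together. The distance to that median was 0.35 to 0.51 under these and -0.02 with quantile normalization. The values held at the floor and the miRNAs that pass it can differ between the scalings with 1 factor per mouse. The distance is therefore not exactly constant under them.

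**Figure D4:**
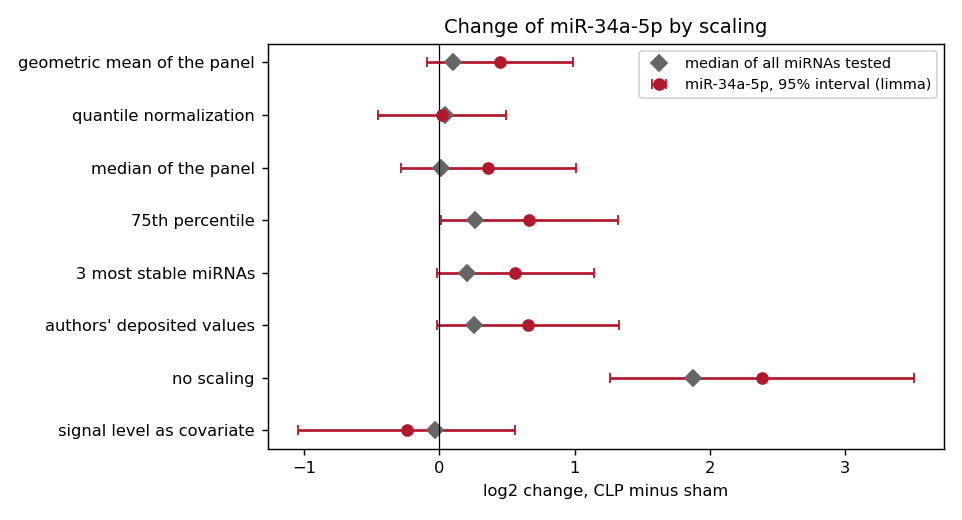
log2 change of miR-34a-5p, CLP minus sham (x axis), under 7 scalings and with the signal level as a covariate (circles, bars are 95% intervals from limma), beside the median change of all miRNAs tested (diamonds). The unscaled change of 2.38 stands beside a panel median of 1.87, and the other values of miR-34a-5p lie between -0.24 and 0.66.

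The share of the summed signal and the brightness rank, both taken within each mouse, did not give one answer. miR-34a-5p made up 0.142% ± 0.0513 of the summed raw signal in CLP mice (SD, n = 8) and 0.0772% ± 0.0353 in sham mice (SD, n = 5), a difference of 0.0648 percentage points (p = 0.0319 by exact two-sided permutation, and 0.0478 after the same adjustment). The share was above every sham mouse in 6 of 8 CLP mice, and CLP mice 8 and 1 lay at 0.0598% and 0.0904%, against 0.130% in sham mouse 3. With miR-16-5p and miR-451a, the brightest probes, left out of the sum, the same exact permutation test gave p = 0.0862 (0.0126 to 0.164 over all alternatives), and the difference also missed the threshold without CLP mouse 4 or 7 or without sham mouse 1, 2 or 4. Over miR-23a-3p, the erythroid miR-451a, a ratio used to gauge red cell RNA, had a log2 value of 1.02 ± 0.39 (SD, n = 8) in CLP mice and 2.03 ± 0.85 (SD, n = 5) in sham mice (exact permutation p = 0.0109); its part in the share was not tested beyond that. The brightness rank of miR-34a-5p within the mouse was 44 to 51 of 68 in CLP mice and 43 to 51 in sham mice, with means of 48.75 in CLP mice and 48.8 in sham mice (exact permutation p = 1). Brightness differs between probes for reasons other than abundance, so ranks compare this probe between mice and do not order miRNAs by amount.

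Set against each other miRNA within the mouse, the ratio of miR-34a-5p rose for some partners and fell for a few. Off the floor, each such change is the scaled change of miR-34a-5p minus that of the partner. The log2 ratio of miR-34a-5p to a partner was higher in CLP for 50 of 64 partners, with a median change of 0.51. By exact permutation with Benjamini-Hochberg adjustment over all 2080 pairs of the panel, 17 of the 64 ratios (26.6%) passed, 15 higher and 2 lower. Over all pairs 25.1% passed, so the count for miR-34a-5p is close to that of the panel. It was 8, 9 and 9 without sham mouse 1, 2 or 4 and 11 without CLP mouse 5. The ratio rose most for miR-205-5p, known from stratified epithelia (4.16-fold, adjusted p = 0.0230 by exact permutation), the erythroid miR-451a (3.86-fold, adjusted p = 0.0405 by exact permutation) and miR-744-5p (3.24-fold, adjusted p = 0.0134 by exact permutation). The ratio to miR-16-5p rose 3.22-fold (adjusted p = 0.0359 by the same exact test). Relative to the panel, miR-205-5p (-1.61) and miR-16-5p (-1.24) themselves fell and miR-10a-5p (1.98) rose, all past limma's test. The change of miR-34a-5p (0.45) did not pass there, so these ratios hold mostly the shifts of the partners.

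The groups did not overlap in 3 of the 64 ratios (4.69%, against 9.18% of all pairs), and those partners were named after their values were seen where they lie outside the lists. The ratio of miR-34a-5p to miR-192-5p, a liver and gut miRNA that p53 also induces, was 0.269 to 0.531 in CLP mice (median 0.385, n = 8), against 0.115, 0.184, 0.185, 0.204 and 0.257 in sham mice. Every CLP mouse lay above every sham mouse in this ratio, a log2 change of 1.08 (exact permutation p = 0.000777, the smallest this design allows, adjusted p = 0.00979). A ratio picked because the groups do not overlap has a p at or near that smallest value in advance, so the p adds no support. Of the other p53-linked partners, the ratio to miR-16-5p passed as well. The log2 changes for miR-145-5p (-0.33), miR-15a-5p (0.34), miR-29a-3p (0.41), miR-29b-3p (0.20) and miR-29c-3p (0.25) did not pass. The ratio to the epithelial miR-200a-3p was 0.374 to 1.07 in CLP mice (median 0.866, n = 8), against 1.19, 1.54, 1.98, 2.26 and 30.6 in sham mice. The last is sham mouse 4, where miR-200a-3p read 0.19 units, below the floor of 2.10 units used in the test. With that floor, the change was -1.34 log2 units (adjusted p = 0.00979 by exact permutation). The ratio to miR-140-3p was 0.620 to 1.23 in CLP mice and 0.171 to 0.534 in sham mice, a log2 change of 1.20 with the same p-values. The ratio to miR-10a-5p, encoded in a Hox cluster, fell by 1.54 log2 units (adjusted p = 0.0170 by exact permutation).

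**Figure D5:**
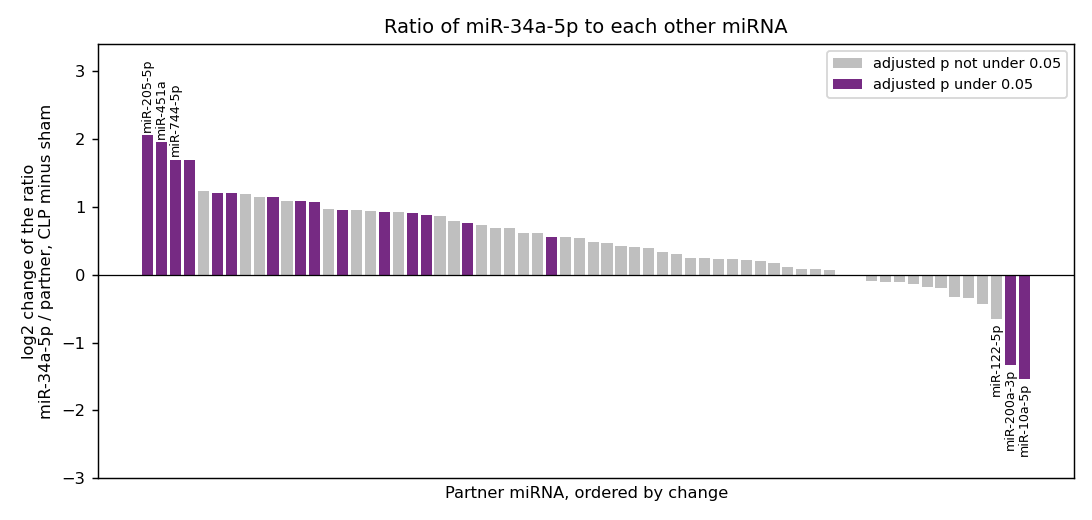
log2 change of the ratio of miR-34a-5p to each of 64 other miRNAs, CLP minus sham (y axis), with partners ordered by change (x axis) and those with an exact permutation p adjusted over all pairs under 0.05 in purple. The bars run from 2.06 for miR-205-5p to -1.54 for miR-10a-5p, and 50 of 64 are above 0.

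Of 16 listed miRNAs that p53 is known to induce or to help process, 8 are on the panel, miR-34a-5p among them. Relative to the panel 0 of the 7 others rose and 1 fell in limma's test, beside 10.8% higher and 20% lower over all miRNAs tested. Their median change was 0.10, and that over all miRNAs was 0.10 too. The one that fell was miR-16-5p (-1.24, SE 0.25, limma adjusted p = 0.00368), whose maturation p53 promotes and which is abundant in red cells; its unscaled change was 0.70. miR-192-5p was at -0.63 (limma adjusted p = 0.0548), and miR-145-5p, of smooth muscle, at 0.78 (0.0820 by the same test). miR-15a-5p was at 0.10, and the 3 miR-29 members, which act on the p53 pathway as well as being induced by it, were at 0.04 (miR-29a-3p), 0.24 (miR-29b-3p) and 0.20 (miR-29c-3p), with none past the test. Unscaled, 6 of the 7 rose (median 2.04), beside 90.9% of the panel (median 1.87). With the level as a covariate 1 of the 7 passed, against 12.1% of the panel: miR-192-5p was lower (-1.54, limma adjusted p = 0.00298).

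Of 13 miRNAs listed as extracellular ligands of TLR7 or TLR8, 10 are on the panel, miR-34a-5p among them. Relative to the panel 1 of the 9 others rose and 1 fell, beside 10.8% higher and 20% lower over all miRNAs tested. The one that rose was miR-146a-5p, which within cells restrains Toll-like receptor signalling (0.87, SE 0.25, limma adjusted p = 0.0192). The one that fell in the same test was miR-21-5p, a ligand reported from tumour exosomes (-0.75, SE 0.22, limma adjusted p = 0.0192); its unscaled change was 1.19. Without sham mouse 2, 0 of the 9 passed, and without sham mouse 1, 1 did. The hepatocyte miR-122-5p (0.98, limma adjusted p = 0.0996), miR-145-5p (0.78), the leukocyte miR-142-3p (0.45), miR-34a-5p (0.45) and miR-155-5p, induced in activated macrophages (0.27), were positive and did not pass. The values of miR-29a-3p (0.04), let-7b-5p (-0.09) and the hypoxia-induced miR-210-3p (-0.12) were near 0. The median of the 9 was 0.27, against 0.10 over all miRNAs. Unscaled, all 9 rose (median 2.21), beside 90.9% of the panel, and with the level as a covariate 0 of 9 passed, against 12.1% of the panel. The labels used here do not give the plasma volume or RNA input behind a sample. More exosomes and more miRNA per exosome cannot be told apart in these data.

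The miRNAs whose scaled profile over the 13 mice was most like that of miR-34a-5p were found by the root mean square difference of log2 values after each profile was centred on its own mean. They were miR-196a-5p (0.285 log2 units), which is encoded in Hox clusters, miR-429 of the miR-200 family (0.325), miR-154-3p (0.363), miR-125a-5p, which modulates innate responses (0.377), and miR-22-3p (0.388). miR-429 was at the floor in 3 of 5 sham mice, and miR-154-3p in 2 of 8 CLP mice and 4 of 5 sham mice. miR-196a-5p, off the floor in every mouse, also ranked first when each group was centred on its own mean (0.285). Its raw signal was 6.29 to 39.1 units in CLP mice and 1.63 to 10.9 units in sham mice, and its scaled change was 0.45 (limma adjusted p = 0.175). It too is among the uridine-rich members of the panel, with 45.5% uridine. The share was 31.8% in miR-154-3p, 29.2% in miR-125a-5p and 22.7% in miR-22-3p, and miR-429 was not matched by name. Whether likeness of profile goes with uridine content was not tested. Of the 5, miR-125a-5p (0.64, limma adjusted p = 0.0465) and miR-22-3p (0.58, limma adjusted p = 0.0343) passed relative to the panel.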

How the data were processed

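Plasma exosomal RNA of 8 CLP and 5 sham mice was read on 68 probes. Per the labels' protocols, RNA came off a column kit, and miRNAs caught on FirePlex particles were joined to adapters, released and amplified with a biotinylated primer. Values in the authors' deposited raw file are linear fluorescence intensity without scaling between samples. How they were scanned and background corrected is not stated in the labels. The table holds 7 exact zeros and was taken as background subtracted, and its 1 empty cell stayed empty. In the second deposited file the authors multiplied the same intensity by 1 factor per sample (0.450 to 4.31), on a basis the labels do not state.

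For the relative analysis each mouse was divided by its geometric mean over 60 miRNAs, multiplied by the mean level, floored at the 5th percentile of positive values (3.09 units; 2.10 unscaled) and log2 transformed. miRNAs above the floor in at least 5 mice were tested with limma 3.58.1 under R 4.3.3 (moderated two-sided test from lmFit and eBayes, with Benjamini-Hochberg adjustment over all miRNAs tested and a threshold of 0.05). Single values were compared by exact two-sided permutation of the mice with Python 3.11.15, numpy 2.4.6 and scipy 1.17.1. Slopes are least squares with 1 intercept per group. Ratios used floored raw values. The limma fit and the ratio test were tested on simulated data. Named miRNAs were the members of both lists, the 5 most alike profiles, the 3 probes next above and below in brightness, and the 3 largest ratio changes each way. miR-140-3p was added after its value was seen, as was miR-16-5p among the ratios. The miRNA, lists and tests were chosen with earlier results of these data known. After first results were seen, the multiplier was changed to the arithmetic from the geometric mean level, and quantile normalization to ranking before flooring. The first forms were kept as alternatives, and miR-34a-5p had the same printed values under them, 0.45 and 0.02. Alternatives changed the scaling, floor, filter, test, level, pairing and mice. Same-numbered CLP and sham mice were not paired: the correlation of their deviations ran from -0.34 to 0.30 and was over 0.1 in 1 of 5 pairs. Sequences are RefSeq's for GRCm38.p6, matched by name for 48 probes.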

Additional observations from a re-analysis of the deposited data

Results flagged for a closer look

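Of 66 sets of values looked at, each 1 measure in 1 group, 5 held a mouse far from the others, and chance alone gives such a mouse in about 1 in 20 sets. The signal level of CLP mouse 8, 7.31 log2 units, was apart from the next CLP mouse at 8.18, and this mouse also had the lowest miR-34a-5p of its group. Its scaled miR-30a-5p, at 5.06, was apart from the next value of 5.76. Sham mouse 3 ranked miR-34a-5p at 43 of 68, against 49 in the nearest sham mouse. The same mouse had the highest scaled miR-429 of the sham group, 3.06 against 2.03 in the next, and the only sham value of miR-154-3p off the floor (1.80, floor 1.63). In sham mice 3 of 5 values of miR-429 and 4 of 5 of miR-154-3p were held at the floor. The rate of 1 in 20 does not apply to sets with such tied values.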

How the results depend on the processing

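The unscaled rise of miR-34a-5p kept its direction and its call in all 18 alternatives run (2.05 to 2.77 log2 units without 1 mouse), with 1.53 (limma adjusted p = 0.0248) without the weakest sham mice, 1 and 4, a setting chosen after seeing the data. The relative change stayed positive and did not pass in any of 28 alternatives (0.33 to 0.62 without 1 mouse). It was 0.23 without the weakest sham mice (limma adjusted p = 0.577) and near 0 with quantile normalization (0.02). At equal level it ran from -0.66 to 0.02 without 1 mouse, turning positive without CLP mouse 8 (0.024) and without sham mouse 3 (0.0056), and passed in none. The difference in share ended at 0.0583 percentage points without miR-16-5p and miR-451a in the sum (exact permutation p = 0.0862), at 0.0476 without the weakest sham mice (p = 0.164, exact permutation), and without CLP mouse 4 or 7 or sham mouse 1, 2 or 4 (0.0541 to 0.0779 over all mice left out in turn, exact permutation p up to 0.0707). The difference in rank, -0.05, has no settled sign: 0.15 over the miRNAs above 0 in all mice, 1.08 without the weakest sham mice and -1.5 to 0.63 without 1 mouse. The slope on level was 1.17 with the median as the level and 1.26 to 1.51 without 1 mouse. In CLP mice r ran from 0.68 (without CLP mouse 8) to 0.97 (without CLP mouse 7). The ratio calls of miR-34a-5p, 17 of 64, became 3 without the weakest sham mice, 8, 9 and 9 without sham mouse 1, 2 or 4, and 11 without CLP mouse 5 (8 to 22 without 1 mouse). The level difference was 1.68 to 2.28 without 1 mouse.

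The panel's relative calls, 20, became 9 with quantile normalization (5 higher, 4 lower), 7 with quantile normalization of values floored before ranking (5 higher, 2 lower), 6 with the replicate block and 11 without sham mouse 2 (11 to 23 without 1 mouse), and the unscaled 60 became 36 without the weakest sham mice (56 to 63 without 1 mouse). The higher and lower calls were 7 and 13 with the geometric mean, 3 and 13 with the panel median, 10 and 8 after scaling to the 3 most stable miRNAs, and 13 and 6 under both the 75th percentile and the authors' values. Of the p53-linked miRNAs 0 passed with either quantile normalization, and 2 under the 75th percentile, the authors' values and without the weakest sham mice (1 to 2 without 1 mouse). Of the TLR7-linked miRNAs 0 passed with either quantile normalization and with the replicate block, and 1 under the panel median, the 75th percentile, the authors' values and without the weakest sham mice (0 to 3 without 1 mouse). The causes were not tested. With the replicate block, in mice 1 to 5 of each group, miR-34a-5p was at 0.46 relative to the panel (limma adjusted p = 0.286), 2.68 unscaled and -0.60 at equal level, the same side of the threshold as without it; the mice share only a number, and 1 of 5 CLP mice correlated best with its own. miR-34a-5p was above the floor in every mouse; negative-control probes were not analysed here, so its distance from background is unknown.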
